A study of Ovis aries with 5 samples.

Results

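This account concerns 5 cytokine genes in sheep dendritic cells (DC): IL12B, TNF, IL6, IL10 and IL15. Of their probes, 8 were found through the RefSeq transcript that the array files give for them, 2 by the gene name in the files and 1 by its description. They were 5 of the 844 genes that could be named and 11 of the 15008 distinct probes, and 9 of the 11 probes, from 4 of the 5 genes, were bright enough to be tested. IL12B, TNF and IL10 had 2 probes each, IL15 had 4 and IL6 had 1.

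DC leave the skin through the lymph to present antigen to T cells, and the cytokines they release help to set the type of T cell response. IL12B encodes p40, the chain that interleukin 12 and interleukin 23 share, and interleukin 12 directs T cells towards interferon-gamma. TNF and IL6 are inflammatory cytokines that activated DC make, IL10 restrains DC and T cell activation, and IL15 sustains natural killer cells and memory CD8 T cells.

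The cells compared were CD1b+ lymph DC, separated by cell sorting on CD26 into a positive and a negative subset that are called CD26+ and CD26- below. Both subsets came from the skin lymph of the same 2 sheep, numbered 10081 and 30066. No treatment other than the sort and no age of the animals is given in the sources used here. Each of the 4 sorted samples carried Cy3, and 1 common reference carried Cy5 on every array. The sample labels call that reference total enriched lymph DC of other sheep, whereas the labelling protocol names RNA of cultured LP-1cl1 cells. It is called total DC here, as in the sample labels. A further array, the self-hybridisation, carried it in both dyes. All 5 arrays lay on 1 slide, with sheep 30066 and the self-hybridisation in row 1 and sheep 10081 in row 2, so a difference between the sheep cannot be told apart from one between the rows.

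The share of probes well above background in Cy3 was 81.1% to 89.5% per array, and precision is limited by the number of arrays. Of the listed DC markers, CD86, CD80 and CD40, which are costimulatory molecules, were well above background on the 4 subset arrays, and the CD1B probe was so on 1 of them. Their log2 ratios did not go the same way. On its brighter probe CD86 stood at -0.58 and -0.84 in CD26+ and at -1.91 and -1.73 in CD26- cells of sheep 10081 and 30066. CD80 stood at 2.05 and 0.90 in CD26+ and at 1.63 and 0.25 in CD26- cells. CD40, on its brighter probe, stood at 1.05 and 0.55 in CD26+ and at 0.44 and 0.23 in CD26- cells. The sort marker CD26 was not analysed here. Of the T cell markers, CD3D had log2 ratios of 4.11 and 3.18 in CD26- and CD26+ cells of sheep 10081 and of 1.41 and 0.10 in those of sheep 30066. CD5, another T cell marker, stood at 1.82 and 2.12 in CD26+ and at 0.99 and -0.18 in CD26- cells of sheep 10081 and 30066. The mean log2 ratio of the T cell markers on the array, 4 of 9 listed, was 1.63 and 1.83 in the subsets of sheep 10081, and 0.58 and 0.75 in those of sheep 30066. The monocyte marker CD14 stood at -1.55 and -1.48 in CD26+ and at 0.32 and -1.16 in CD26- cells of these sheep. LYZ, the other monocyte and macrophage marker on the array, did not follow CD14. It stood at -0.50 and 0.68 in CD26+ and at -0.40 and 0.25 in CD26- cells. The mast cell marker TPSB2 had log2 ratios of 0.77 to 1.65 in the sorted samples where it had a value, and of 0.43 and 0.44 on the self-hybridisation. KIT, another mast cell marker, stood at -0.44 to -0.07 in the sorted samples on its tested probe. Among these samples that probe was well above background only in CD26- cells of sheep 10081. Of the natural killer cell markers only GNLY, 1 of 5 listed, was on the array, and its 4 probes lay below total DC in every sorted sample. In sheep 30066 they stood at -4.89 to -3.87 in CD26- and -2.17 to -1.82 in CD26+ cells. In sheep 10081 they stood at -1.02 to -0.91 in CD26- cells, on the 3 probes with a value, and at -1.48 to -1.32 in CD26+ cells. T cells, monocytes and natural killer cells also transcribe TNF, and the part of other cells in the values below was not tested. In RNA of a whole sample, fewer cells of a type and less RNA per cell cannot be told apart.

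The probes are 60 bases long. Their sequences are shown because probes of 1 gene did not always give the same values, and because some of them overlap. The 2 IL12B probes share 30 bases, printed in capitals, and so are not independent readings of the gene.

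IL12B probe 1: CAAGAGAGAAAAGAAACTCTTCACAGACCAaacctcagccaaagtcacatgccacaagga
IL12B probe 2: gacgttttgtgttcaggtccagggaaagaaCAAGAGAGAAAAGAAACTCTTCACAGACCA

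The 2 TNF probes share no run of 16 bases. Probe 1 was designed on a record of part of the TNF coding sequence, and it is printed whole. Of probe 2, designed on the TNF RefSeq transcript, bases 31 to 60 are printed, with AATAAA, the letters of a polyadenylation signal, in capitals from base 34.

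TNF probe 1: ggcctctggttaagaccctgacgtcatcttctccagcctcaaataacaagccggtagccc
TNF probe 2, bases 31 to 60: agaAATAAAgtgtcctgagaaaagaaaaaa

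AATAAA was searched on the probe strand in all 11 probes and was also found in IL15 probe 1, from base 36. A match is a description of the letters and not evidence of a transcript end. The IL15 probes form 2 overlapping pairs, with the shared bases in capitals. Probes 1 and 2, on the IL15 RefSeq transcript, share 16 bases, and probes 3 and 4, on an expressed sequence tag named IL15 in the files, share 20.

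IL15 probe 1: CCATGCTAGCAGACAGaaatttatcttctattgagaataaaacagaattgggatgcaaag
IL15 probe 2: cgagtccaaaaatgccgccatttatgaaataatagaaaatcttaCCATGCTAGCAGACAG
IL15 probe 3, bases 1 to 30: TTGATATACAAGGCCCTTCTtcttgctgtt
IL15 probe 4, bases 31 to 60: aatttcattaTTGATATACAAGGCCCTTCT

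The 2 IL10 probes share 20 bases, again in capitals.

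IL10 probe 1, bases 1 to 30: GAAGCAACTCAATTCCTCTGggaatgttac
IL10 probe 2, bases 31 to 60: gtttgaactaGAAGCAACTCAATTCCTCTG

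The values below are log2 ratios of Cy3 over Cy5, that is of the sorted cells over total DC, and the figure of the probes on each array shows all of them. Differences between groups are differences of these log2 ratios, tested with limma over 13264 probes between the subsets and over 13204 against total DC. A probe was called at a Benjamini-Hochberg adjusted p under 0.05. No cytokine probe was called in any of the 3 comparisons, so the differences are given as sizes.

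**Figure D1:**
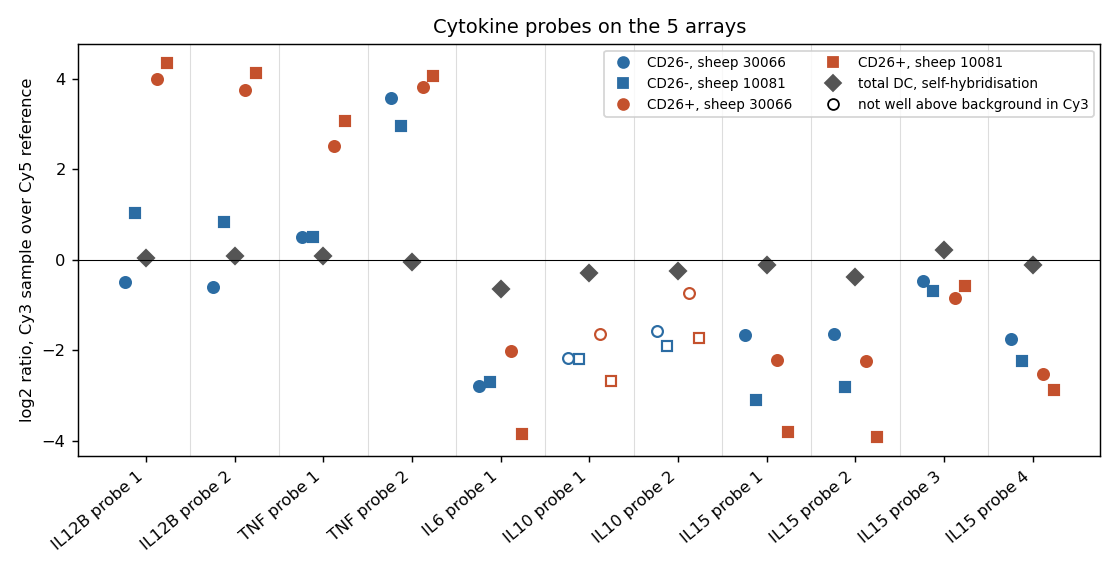
Log2 ratio of the Cy3 sample over the Cy5 reference (vertical axis) for the 11 cytokine probes (horizontal axis) on the 5 arrays, 1 point per array, with open symbols where Cy3 was not well above background. CD26+ cells lie far above CD26- cells for both IL12B probes and TNF probe 1, while IL6, IL10 and IL15 lie below 0 on all 4 subset arrays.

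IL12B was far above total DC in CD26+ cells of both sheep and much closer to it in CD26- cells. Probe 1 had log2 ratios of 4.35 and 3.99 in CD26+ cells of sheep 10081 and 30066, of 1.03 and -0.50 in CD26- cells, and of 0.05 on the self-hybridisation. Probe 2 had 4.14 and 3.75 in CD26+ cells, 0.84 and -0.61 in CD26- cells, and 0.08 on the self-hybridisation. On both probes the 2 sheep lay on opposite sides of total DC in CD26- cells. Both probes were well above background in both dyes on all 5 arrays.

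CD26+ minus CD26- cells differed on IL12B probe 1 by 3.90 (SE 0.63, n = 2 sheep), a 14.96-fold difference, with 3.32 in sheep 10081 and 4.49 in sheep 30066. The adjusted p from limma was 0.764 and the unadjusted 95% interval 2.21 to 5.59. Here and below, SE and intervals come from the model without the sheep as a block unless stated. With that block the SE on probe 1 was 0.44. Probe 2 gave 3.83 (SE 0.61). Of all tested probes, 99.95% had a smaller difference in size than IL12B probe 1. Before correction, the net Cy3 signal of probe 1 was 7928 and 5784 units on the CD26+ arrays, 747 and 233 on the CD26- arrays and 309 on the self-hybridisation.

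TNF, which acts through its 2 receptors to activate endothelium and leukocytes, was higher than total DC in CD26+ cells on both probes, and its 2 probes disagreed in CD26- cells. TNF probe 1 had log2 ratios of 3.06 and 2.52 in CD26+ cells of sheep 10081 and 30066, of 0.50 and 0.49 in CD26- cells and of 0.09 on the self-hybridisation. TNF probe 2 had 4.05 and 3.82 in CD26+ cells, 2.96 and 3.57 in CD26- cells and -0.04 on the self-hybridisation. On probe 2 the subsets lay close together in the main run, and far above total DC. Both probes were well above background in both dyes on all 5 arrays.

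Between the subsets, TNF probe 1 differed by 2.29 (SE 0.38), 2.55 in sheep 10081 and 2.02 in sheep 30066, with a limma adjusted p of 0.764. TNF probe 2 differed by 0.67 (SE 0.40), 1.09 and 0.25 in these sheep, with a limma adjusted p of 0.957 and an unadjusted 95% interval of -0.40 to 1.74. When no spot was left out of the normexp background fit, this difference was 1.92 on probe 2 and 2.30 on probe 1. The closeness of the subsets on probe 2 thus depends on the spots left out, by a limit chosen after results had been seen. Probe 2 exceeded probe 1 in log2 ratio by 2.46 and 3.07 in CD26- cells of sheep 10081 and 30066, by 0.996 and 1.30 in CD26+ cells, and by -0.13 on the self-hybridisation. In CD26- cells against total DC the TNF probes lay 2.90 apart, a span that 0.490% of the 408 genes with several tested probes reached, where the median span was 0.13. The size of the TNF difference in CD26- cells thus depends on the probe read: probe 1 gave 0.41 (SE 0.46) and probe 2 gave 3.31 (SE 0.49) against total DC. When no spot was left out of the normexp fit, probe 1 gave 0.12 and probe 2 gave 1.97 there. Probe 1 was dim: its net Cy3 signal was 685 and 406 units on the CD26+ arrays, 90.5 and 108 on the CD26- arrays and 25.4 on the self-hybridisation. The last is under the offset of 50 units added to each corrected signal. With an offset of 16 in its place, probe 1 gave 0.51 and probe 2 gave 3.52 in CD26- cells against total DC.

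The Cy5 signal of TNF probe 2 also varied, although Cy5 carried the same reference on every array. Its net Cy5 signal was 316 and 547 units on the CD26+ arrays, 123 and 387 on the CD26- arrays, and 85.8 on the self-hybridisation. Its coefficient of variation was 65.4%, above that of 98.2% of tested probes, whose median was 16.3%. On TNF probe 1 the Cy5 signal was 74.7 and 68.6 units on the CD26+ arrays, 66.6 and 97.1 on the CD26- arrays and 36.2 on the self-hybridisation. The lowest Cy5 signal on a subset array was 1.44 times that of the self-hybridisation on TNF probe 2 and 1.84 times on TNF probe 1, and under 1 on the other 9 probes. IL12B probe 1 had a Cy5 coefficient of variation of 15.7%.

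**Figure D2:**
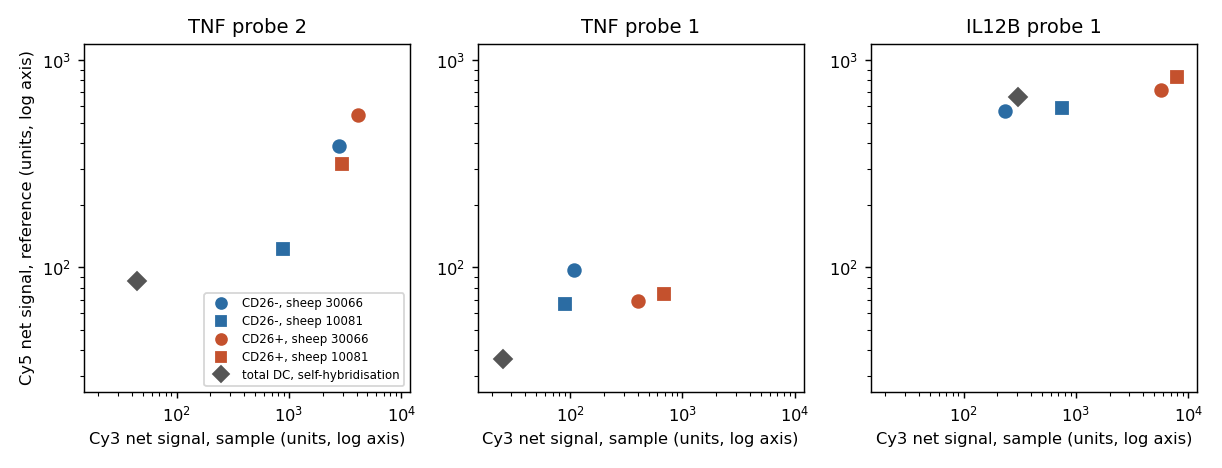
Net Cy5 signal of the reference (vertical log axis, units) against net Cy3 signal of the sample (horizontal log axis, units) for TNF probe 2, TNF probe 1 and IL12B probe 1, 1 point per array. On TNF probe 2 the Cy5 signal runs from 85.8 units on the self-hybridisation, the array with the lowest Cy3 signal, to 547 units on the array with the highest, whereas on IL12B probe 1 it stays between 569 and 833 units.

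Over 12112 tested probes that were above background in Cy5 on the self-hybridisation, the highest subset Cy5 signal was 1.17 times that of the self-hybridisation (median). On TNF probe 2 it was 6.38 times. Read from Cy3 alone, TNF probe 2 was 5.20 above total DC in CD26+ cells, in place of 3.98 from the ratio.

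IL6, an inducer of the acute phase response and of plasma cell and Th17 differentiation, lay below total DC in all 4 sorted samples. Its log2 ratios were -3.86 and -2.01 in CD26+ cells of sheep 10081 and 30066, -2.70 and -2.78 in CD26- cells and -0.64 on the self-hybridisation. The CD26+ arrays were the lowest and the highest of the sorted samples, so the subsets overlapped. The subset difference was -0.20 (SE 0.71, limma adjusted p = 1), with opposite signs in the sheep, at -1.16 in 10081 and 0.77 in 30066, and an unadjusted 95% interval of -2.10 to 1.71. Without the CD26+ array of sheep 10081 the difference was 0.73.

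IL10 was not well above background in Cy3 in either subset and was so on the self-hybridisation, on both probes. In Cy5, which carried total DC, both probes were well above background on all 5 arrays. IL10 probe 1, the mean of up to 5 spots, had log2 ratios of -2.67 and -1.64 in CD26+ cells of sheep 10081 and 30066, -2.19 and -2.16 in CD26- cells, and -0.28 on the self-hybridisation. IL10 probe 2 had -1.72 and -0.74 in CD26+ cells, -1.90 and -1.58 in CD26- cells, and -0.24 on the self-hybridisation. On the array of CD26+ cells of sheep 30066, 2 of the 5 spots of probe 1 passed the background flag. Read from Cy3 alone, scaled between arrays, total DC were at least 3.97-fold (probe 1) and 3.16-fold (probe 2) above CD26+ cells, and at least 4.43-fold and 3.14-fold above CD26- cells. These bounds set the self-hybridisation against the dimmest signal that counts as above background or, where higher, the probe's own signal. They do not bound the log2 ratios, which gave smaller folds in sheep 30066 on both probes. In sheep 10081 the folds were smaller in CD26+ cells on probe 2 and in CD26- cells on probe 1. There they were larger in CD26+ cells on probe 1 and slightly larger in CD26- cells on probe 2. CD26+ cells of sheep 10081 and 30066 stood at -2.39 and -1.36 from total DC on probe 1, and at -1.48 and -0.50 on probe 2. CD26- cells of these sheep stood at -1.91 and -1.88 on probe 1, and at -1.66 and -1.34 on probe 2. No fold between the subsets can be given.

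IL15, which DC present in trans on the IL-15 receptor alpha chain, lay below total DC on all 4 probes in all 4 sorted samples. Probe 1, the mean of 5 spots, had log2 ratios of -3.81 and -2.22 in CD26+ cells of sheep 10081 and 30066, -3.09 and -1.66 in CD26- cells, and -0.12 on the self-hybridisation. Its spots on 1 array had an SD of 0.064 to 0.24. Probe 2 had -3.92 and -2.23 in CD26+ cells, -2.81 and -1.63 in CD26- cells, and -0.39 on the self-hybridisation. On both probes sheep 10081 was the lower sheep in each subset.

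The expressed sequence tag probes of IL15 differed from each other although they share 20 bases. Probe 4 had log2 ratios of -2.87 and -2.52 in CD26+ cells of sheep 10081 and 30066, -2.25 and -1.74 in CD26- cells and -0.12 on the self-hybridisation. Probe 3 had -0.59 and -0.84 in CD26+ cells, -0.69 and -0.48 in CD26- cells and 0.21 on the self-hybridisation. Probe 3 also shares 16 bases with a probe that has no gene name here. Against total DC in CD26+ cells the IL15 probes spanned 1.97, a span that 1.23% of genes with several tested probes reached. The subset difference was -0.64 (SE 0.80), -0.85 (SE 0.77), -0.13 (SE 0.35) and -0.70 (SE 0.39) on probes 1 to 4, with limma adjusted p of 0.945 to 1. Within sheep 10081 and 30066 the difference was -0.72 and -0.55 on probe 1, -1.11 and -0.60 on probe 2, 0.10 and -0.36 on probe 3, and -0.62 and -0.77 on probe 4. With the sheep as a block the SE was 0.30, 0.33, 0.32 and 0.30 on probes 1 to 4, with limma adjusted p of 0.602 to 0.942. Leaving out 1 array, which breaks a pair, gave 0.16 on probe 1 without CD26+ cells of sheep 10081 and 0.076 without CD26- cells of sheep 30066. The unadjusted 95% intervals from the model without the block included 0 on all 4, for probe 4 from -1.75 to 0.36.

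Across the comparison of CD26+ with CD26- cells, 0% of tested probes were called by limma (0 of 13264), and 746 had an unadjusted p under 0.05, among them 3 of the 9 cytokine probes (both IL12B probes and TNF probe 1). At least 2-fold higher in CD26+ cells of both sheep were 3 of the 9 cytokine probes, against 2.42% of all probes measured in both sheep. At least 2-fold lower in both sheep were 0 of 9, against 2.97%. The 3 probes read 2 genes, and the IL12B probes overlap. The 5 genes were chosen with earlier results of these data known, so the shares are a description and not a test.

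**Figure D3:**
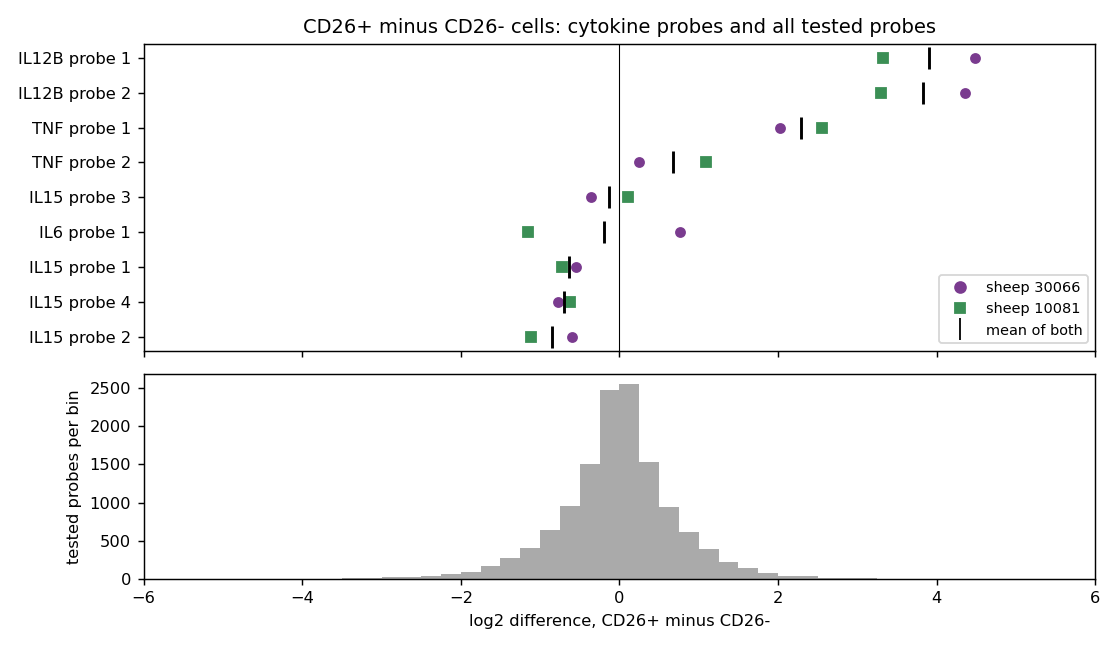
Upper panel: log2 difference of CD26+ minus CD26- cells (horizontal axis) for the 9 tested cytokine probes (vertical axis), 1 point per sheep and a bar for the mean. Lower panel: number of tested probes per bin of the same difference. IL12B probes 1 and 2 lie at 3.90 and 3.83 and TNF probe 1 at 2.29, whereas the median of all tested probes was -0.01.

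By the sample labels total DC came from other sheep and were not split on CD26. A difference of a subset from total DC thus cannot be told apart from one between animals or from the sort. The labelling protocol instead names RNA of cultured LP-1cl1 cells, so the kind of cell in the reference cannot be told apart either. Against total DC, both comparisons share the single self-hybridisation, so a deviation of that array moves both. In CD26+ cells IL12B probe 1 stood 4.12 above it (SE 0.77, limma adjusted p = 0.328), TNF probe 1 by 2.69 (SE 0.46, limma adjusted p = 0.328) and TNF probe 2 by 3.98 (SE 0.49, limma adjusted p = 0.305). In CD26- cells IL12B probe 1 stood at 0.22 (SE 0.77, limma adjusted p = 0.959), with an unadjusted 95% interval of -1.85 to 2.29. IL6 stood at -2.29 (SE 0.87) in CD26+ and at -2.10 (SE 0.87) in CD26- cells. IL15 probe 1 stood at -2.89 (SE 0.98) and -2.26 (SE 0.98), and probe 4 at -2.57 (SE 0.48) and -1.87 (SE 0.48).

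In CD26+ cells against total DC, 0% of tested probes were called by limma (0 of 13204), and 1491 had an unadjusted p under 0.05, 7 of the 9 cytokine probes among them. At least 2-fold higher in both sheep were 4 of 9, both probes of IL12B and of TNF, against 9.89% of all probes. At least 2-fold lower were 4 of 9, IL6 and IL15 probes 1, 2 and 4, against 8.79%. In CD26- cells against total DC, 0% were called (0 of 13204), and 1401 had an unadjusted p under 0.05, 2 of the 9 among them. At least 2-fold higher was 1 of 9, TNF probe 2, against 10.1%, and at least 2-fold lower were 4 of 9, the same IL6 and IL15 probes, against 7.51%. These shares too describe genes chosen with earlier results known.

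**Figure D4:**
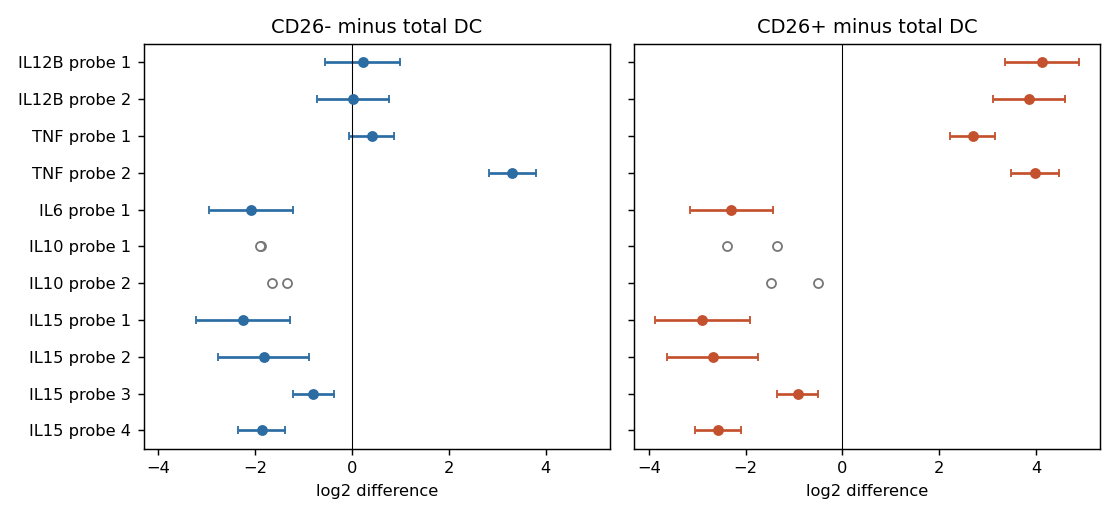
Log2 difference of each subset minus total DC (horizontal axis) for the 11 cytokine probes (vertical axis): points are the means over 2 sheep with bars of 1 SE from limma, and open circles are the single sheep of the untested IL10 probes. IL12B stands near 0 in CD26- cells and near 4 in CD26+ cells, and IL6 and IL15 stand below 0 in both.

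Of 66 other genes of these pathways that were listed, 15 were on the array under a usable name and 13 had a tested probe. None was measured at least 2-fold apart between the subsets in both sheep, where 2.42% of all probes were higher and 2.97% lower, and limma called none. IL18, 1 of the 13, lacked a value in sheep 30066, where its CD26+ spot was left out for its bright local background. IL12A, the p35 chain that pairs with p40 in interleukin 12, differed between the subsets by -0.06 (SE 0.37) on its brighter probe and by 0.07 (SE 0.36) on the other. Against total DC the brighter probe stood at -1.52 (SE 0.46) in CD26+ and -1.46 (SE 0.46) in CD26- cells, and the other at -1.08 (SE 0.44) and -1.15 (SE 0.44). The brighter probe was not well above background in CD26+ cells of sheep 10081. IRF1, a transcription factor that acts on IL12 genes, differed between the subsets by 0.89 (SE 0.42), at 0.92 in sheep 30066 and 0.87 in sheep 10081. CEBPB, a transcription factor of the IL6 promoter, differed by -0.25 (SE 0.34).

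In CD26+ cells against total DC, 3 of the 13 were at least 2-fold higher in both sheep and 1 was lower, against 9.89% and 8.79% of all probes. The 3 were STAT5A, a signal transducer of IL15, at 1.89 (SE 0.78), the suppressive cytokine TGFB1 at 1.73 (SE 1.06) and IRF1 at 1.33 (SE 0.51), and the lower gene was IL12A. On its other probe, IL12A stood at -0.87 in CD26+ cells of sheep 30066, under 2-fold. In CD26- cells 1 of the 13 was lower in both sheep, IL12A, and none was higher in both. There TGFB1 stood at 1.75 (SE 1.06), 0.63 in sheep 10081 and 2.87 in sheep 30066, and STAT5A at 1.24 (SE 0.78), 1.94 and 0.54. Between the subsets TGFB1 differed by -0.03 (SE 0.86) and STAT5A by 0.65 (SE 0.63). ZFP36, whose protein promotes decay of TNF mRNA, again had probes that disagreed: 2.92 (SE 0.79) and -0.53 (SE 1.24) in CD26+ cells against total DC, and 2.44 and -0.14 in CD26- cells. The first of these is not its brightest probe and is not in the counts above. It was over 2-fold higher in both sheep, at 2.68 and 3.16 in CD26+ cells of sheep 10081 and 30066. In CD26- cells of these sheep it stood at 1.67 and 3.22, so the counts depend on the probe. The IL2 and IL4 probes were not well above background on any array.

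Genes were also ranked by the root mean square difference of their log2 ratios from IL12B, TNF and IL6 over the 5 arrays, among 688 genes, with the brightest probe of each gene. BMP6, a growth factor, was nearest to IL12B at 0.50, followed by CPP32, an older name of caspase 3, at 1.10 and the chemokine CXCL10 at 1.202. BMP6 had log2 ratios of 4.56 and 3.51 in CD26+ cells of sheep 10081 and 30066, and of 1.91 and -0.05 in CD26- cells. For TNF probe 2 the nearest were PFKL, a glycolytic enzyme, at 0.46 and the claudins CLDN3 and CLDN4 at 0.60 and 0.62. For IL6 they were PDXK, the vitamin B6 kinase, at 0.44, the ribosomal protein RPS12 at 0.61 and the motor protein KIF5B at 0.66. These distances describe 5 arrays that share 1 reference and carry no test.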

How the data were processed

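Sorted lymph DC and a common reference were compared on 5 Agilent 2-colour arrays, with no dye swap. The array files the authors deposited hold raw spot intensity from Feature Extraction 9.5.3.1 and a log10 ratio of red over green, per the file headers, and the deposited value table holds the same as a log2 ratio of Cy3 over Cy5, to within 5e-10. Mean signals were background-corrected (normexp, offset 50) and normalised within arrays by loess (limma 3.58.1, R 4.3.3). Spots with a local background over 5 times the array median (0 to 9 per array) were left out, a limit chosen after results had been seen, as were outlier and control spots. Spots of a probe were averaged. A probe was tested if Cy3 was well above background on 2 or more of 5 arrays. The model had 3 group means and no block and was fitted with lmFit and eBayes. Per the labels, both subsets came from each sheep and are paired, and deviations of its arrays correlated with r = 0.33. The 2 sheep are biological replicates. Names came from the files and from RefSeq (ARS-UI_Ramb_v3.0), without coordinates. Every cytokine probe is named, and a listed gene is counted by its brightest probe. The members and lists were chosen with earlier results of these data known. Promoters, proteins and positions were not analysed here. The fit was tested on simulated data. The genes nearest to IL15 are not reported here.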

Additional observations from a re-analysis of the deposited data

Results flagged for a closer look

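The Cy5 channel carried the same reference on all 5 arrays and is the denominator of every ratio, but its own signal was not tested between groups. On both TNF probes the Cy5 signal was higher on each of the 4 subset arrays than on the self-hybridisation, the control array. The lowest subset array stood at 1.84 times the self-hybridisation on TNF probe 1 and at 1.44 times on TNF probe 2. Over all probes the median net Cy5 signal was 316 to 369 units on the subset arrays and 341 on the self-hybridisation.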

How the results depend on the processing

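No probe on the array was called in any comparison under any alternative run. With the sheep as a replicate block, following the pairing in the labels, the smallest adjusted p was 0.577 between the subsets, 0.216 for CD26+ and 0.235 for CD26- cells against total DC, and no call changed. Counted by the brightest probe, 1 cytokine gene, IL12B, had a mean difference of at least 2-fold between the subsets. This became 3 when no spot was left out of the normexp fit, and 2 with Cy3 alone (chosen after seeing the data), with the median over probes, or without the CD26+ array of sheep 30066 (range 1 to 2 over arrays left out). IL6, whose sheep had opposite signs, is counted in the 3, at -1.03, and in the last of these, at -1.12. Directions turned only for differences that were under 2-fold in the main run, among them -0.64 on IL15 probe 1. Between the subsets, IL6 ranged from -1.12 to 0.73 over arrays left out and was 0.0030 with Cy3 alone, IL15 probe 1 ranged from -1.43 to 0.16 over arrays left out, and IL15 probe 3 was 0.15 with Cy3 alone. In CD26- cells against total DC, IL12B probe 2 was -0.011 without background subtraction, -0.0078 with an offset of 16, -0.033 with the scanner's ratio and -0.071 with Cy3 alone. Over arrays left out, IL12B probes 1 and 2 ranged from -0.55 to 0.99 and from -0.70 to 0.75 there, below 0 without the CD26- array of sheep 10081. The causes were not tested. IL12B probe 1 ranged from 3.14 to 4.67 between the subsets over arrays left out.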
